A study of Mus musculus with 27 samples.

Results

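Lamins and the proteins that hold them at the inner nuclear membrane were followed as 10 genes, taken by symbol from a fixed list: the lamin genes Lmnb1, Lmnb2 and Lmna, and the membrane and adaptor genes Lbr, Emd, Tmpo, Lemd3, Banf1, Sun1 and Sun2. They are 10 of 23295 genes in the table of parental cells and of 24247 genes in the table of shRNA cells, and all 10 passed the filter on low values in both tables (2 or more libraries with an FPKM of 1 or higher). The cells were NMuMG, an epithelial line from mouse mammary gland that undergoes epithelial-to-mesenchymal transition (EMT) under transforming growth factor (TGF)-β. Parental cells were untreated (0 h) or given TGF-β for 8 or 24 h, at 1 to 5 ng/ml according to the labels. C cells carried a lentiviral irrelevant shRNA and KD cells a lentiviral shRNA against lamin B1, both were selected with puromycin, and both were sampled untreated and after 8 and 24 h of TGF-β. RNA-seq gave 2 libraries in each of these 9 groups, described in the methods as biological replicates. Lamin B1 ChIP-seq and ATAC-seq, both of parental cells, gave 1 library per time point, and each ChIP library combined parallel ChIPs. Expression is given in FPKM (fragment counts divided by transcript length and by the number of mapped fragments in the library), which corrects for transcript length, and the 2 tables were normalized apart, so levels are compared within a table only.

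Lamins are intermediate filament proteins that build the nuclear lamina, a meshwork under the inner nuclear membrane. The B-type lamins, encoded by Lmnb1 and Lmnb2, keep a farnesyl anchor and stay close to the membrane. The mature A-type lamins, spliced from Lmna, carry none and are also found in the nuclear interior. The lamin B receptor, emerin, the LAP2 proteins of Tmpo and MAN1 (Lemd3) span or line the inner membrane and tie chromatin to it. LAP2, emerin and MAN1 share a LEM domain that binds barrier-to-autointegration factor (Banf1), a small DNA-binding protein. SUN1 and SUN2 reach across the perinuclear space to nesprins of the outer membrane and so couple the lamina to the cytoskeleton, in what is called the LINC complex.

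The stretches before the start sites of 5 members are shown: Lbr and Sun2, which had the largest fall and the only rise of RNA at 24 h in parental cells, and Lmna, Lmnb2 and Emd, whose lamin B1 or ATAC peaks lay elsewhere than over the start or were missing at some times. Each line gives the 250 bases before the gene's first annotated base, 5′ to 3′ on the gene's own strand, from the mm9 genome (NCBIM37) with GENCODE M1 gene models. Capitals mark matches, on either strand, to the letters searched, which were CCAAT, the GC box GGGCGG, the E2F-type letters TTTGGCGC and TTTCCCGC, the SMAD-type letters CAGAC, the Snail/Zeb-type E-box CACCTG and the AP-1-type letters TGANTCA. Matches that touch or overlap run together in the line of Sun2.
Lbr, chr1:183772533-183772782, minus strand: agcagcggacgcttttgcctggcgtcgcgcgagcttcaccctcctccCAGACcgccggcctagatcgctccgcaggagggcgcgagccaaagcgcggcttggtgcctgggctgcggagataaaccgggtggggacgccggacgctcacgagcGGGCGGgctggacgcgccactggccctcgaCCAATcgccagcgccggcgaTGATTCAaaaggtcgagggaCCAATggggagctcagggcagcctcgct
Sun2, chr15:79572967-79573216, minus strand: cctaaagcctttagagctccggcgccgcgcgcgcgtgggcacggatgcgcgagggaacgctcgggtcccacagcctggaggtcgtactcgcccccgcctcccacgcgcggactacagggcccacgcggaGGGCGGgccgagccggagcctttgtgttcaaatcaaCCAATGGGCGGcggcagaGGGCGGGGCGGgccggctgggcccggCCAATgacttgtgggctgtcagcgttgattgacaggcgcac
Lmna, chr3:88313879-88314128, minus strand: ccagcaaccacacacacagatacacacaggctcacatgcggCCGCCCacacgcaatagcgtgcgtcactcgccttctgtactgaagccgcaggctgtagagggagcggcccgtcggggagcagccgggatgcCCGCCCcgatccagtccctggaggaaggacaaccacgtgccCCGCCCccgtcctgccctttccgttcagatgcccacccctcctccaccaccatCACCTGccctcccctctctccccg
Lmnb2, chr10:80380991-80381240, minus strand: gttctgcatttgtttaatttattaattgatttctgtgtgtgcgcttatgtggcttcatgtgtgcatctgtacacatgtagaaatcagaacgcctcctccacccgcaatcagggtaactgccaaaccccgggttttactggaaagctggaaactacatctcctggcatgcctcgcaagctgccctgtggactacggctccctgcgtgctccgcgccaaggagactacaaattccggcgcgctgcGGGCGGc
Emd, chrX:71499776-71500025, plus strand: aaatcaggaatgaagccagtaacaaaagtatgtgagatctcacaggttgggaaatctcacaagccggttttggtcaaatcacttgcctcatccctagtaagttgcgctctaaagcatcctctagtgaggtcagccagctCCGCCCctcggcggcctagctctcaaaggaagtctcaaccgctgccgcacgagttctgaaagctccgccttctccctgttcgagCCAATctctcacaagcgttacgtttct
CCAAT was found in 6 of the 10 members' windows, beside 36.3% of the 10614 expressed genes that could be placed by symbol, and the GC box in 8 of 10, beside 56.7%. The SMAD-type letters were in 3 members (Lbr, Tmpo and Banf1, 39.9% of all windows), the E-box letters in 2 (Lmna and Lemd3, 14.8%) and the AP-1-type letters in Lbr alone (4.43%). E2F-type letters were in none of the 10 and in 2.44% of all windows. The windows of Lbr and Sun2 held 69.6% and 70.8% G and C, those of Lmnb2 and Emd 52.8% and 51.2%, and the median of all windows was 59.2%. In Tmpo, 5 of 7 coding transcripts start downstream of the gene's first base, at position 90634327 on chromosome 10, so its window lies before an outer start. Sun2, Lmna, Emd and Lmnb2 have 6, 4, 4 and 2 coding transcripts, of which 1 each starts at the gene's first base. Their windows therefore lie before only 1 of the annotated coding starts. These matches are letters in a window and not binding sites.

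At 0 h, Banf1 and Lmna had the highest levels among the members in parental cells and Lemd3 the lowest. The order of mean FPKM was Banf1 (405), Lmna (357), Tmpo (122), Emd (43.8), Lmnb1 (36.6), Lbr (29.0), Lmnb2 (20.6), Sun1 (18.9), Sun2 (13.8) and Lemd3 (5.25), and no neighbours in this order overlapped over their 2 libraries. In C cells at 0 h Lmna stood first (370) and Banf1 second (325), and the neighbours Lmnb1 and Lbr overlapped, as did Lmnb2, Sun2 and Sun1. After 24 h in parental cells Lmna led with 287 and Banf1 followed with 267, Sun2 had passed Sun1, Lmnb1 and Lmnb2, and Lbr had dropped to ninth place with 9.84. At 24 h Sun1 (18.5) and Lmnb1 (18.5) did not differ beyond their spread.

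**Figure D1:**
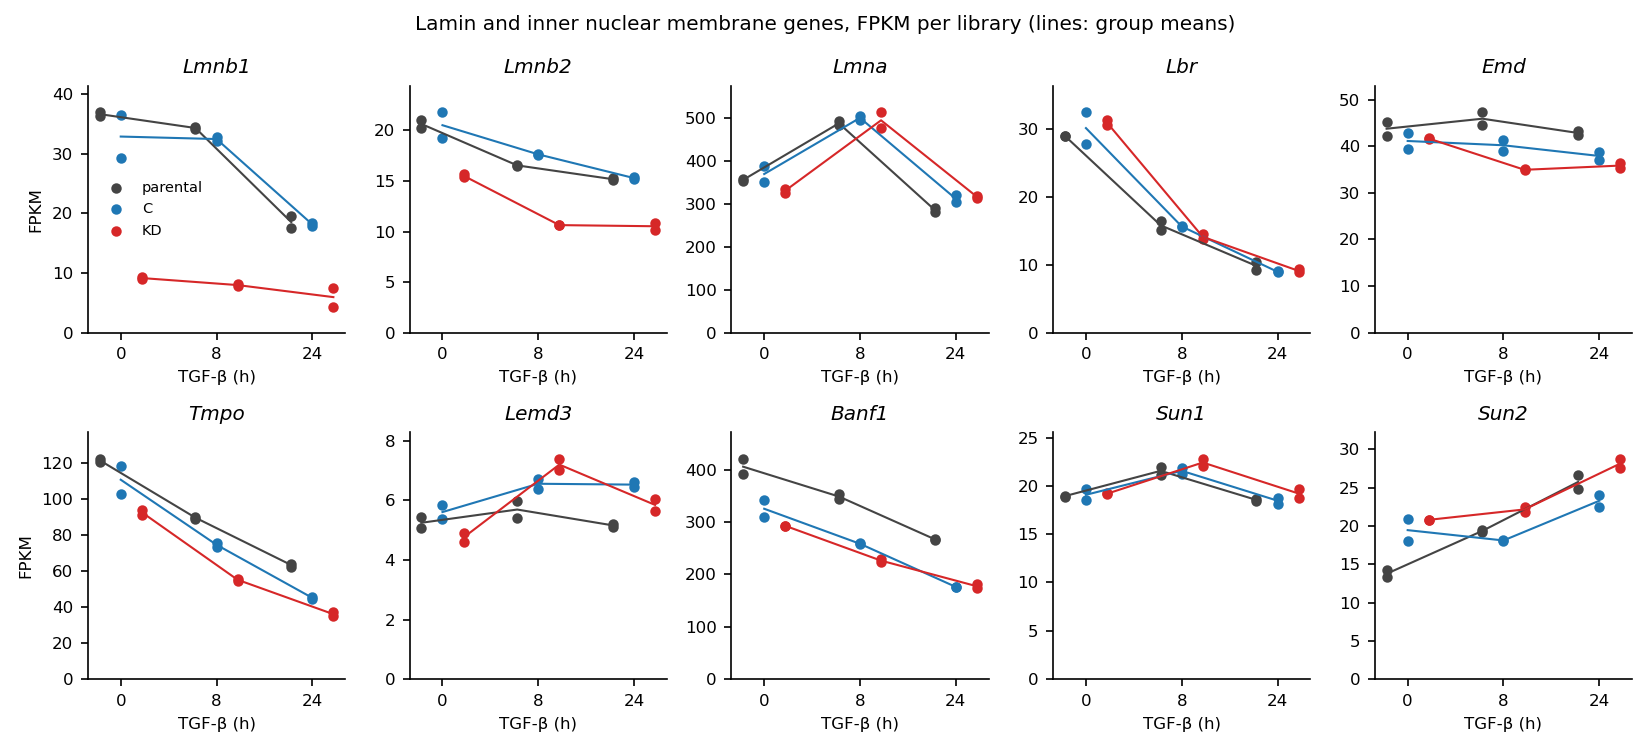
FPKM of each member in every RNA-seq library (points) by hours of TGF-β, with lines through the group means of parental, C and KD cells, each panel on its own linear axis from 0. Lbr, Tmpo and Banf1 fell in all 3 kinds of cells, Lmna peaked at 8 h, and Lmnb1 was below 10 in all 6 KD libraries.

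Among the lamin genes, Lmnb1 and Lmna moved at different times in parental cells. Lmnb1 was at 36.9 and 36.3 FPKM in the 0 h libraries, 34.1 and 34.4 at 8 h, and 19.5 and 17.6 at 24 h. The 24 h libraries lay far below all others, whereas 8 h differed from 0 h by little. On the log2(FPKM + 1) scale the difference at 24 h was -0.95 (SE 0.05, adjusted p = 6.38e-06, limma with Benjamini-Hochberg adjustment over all 11309 genes tested), a mean of 50.6% of the untreated level, and at 8 h it was -0.09 (SE 0.05, adjusted p = 0.182). Lmna, by contrast, was at 359 and 354 FPKM at 0 h, 493 and 484 at 8 h and 290 and 283 at 24 h. All 3 groups were apart, with the highest libraries at 8 h and the lowest at 24 h. Lmna rose by 0.45 (SE 0.04, adjusted p = 0.000122) at 8 h and was 0.32 below the untreated level at 24 h (log2 difference -0.32, SE 0.04, adjusted p = 0.000239). Lmnb2, the second B-type gene, was at 20.2 and 21.1, then 16.5 and 16.6, then 15.05 and 15.3 FPKM, and most of its fall had taken place by 8 h (-0.30 at 8 h, adjusted p = 0.0012, and -0.42 at 24 h, adjusted p = 0.000117).

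The ratio between the lamin genes shifted accordingly. Lmna exceeded Lmnb1 9.74-fold in both 0 h libraries of parental cells, 14.1-fold and 14.4-fold at 8 h, and 14.9-fold and 16.1-fold at 24 h. Lmna made up 86.0% to 86.3% of the summed lamin FPKM at 0 h, 90.5% to 90.7% at 8 h and 89.4% to 89.6% at 24 h. Lmnb1 to Lmnb2 was 1.72 and 1.82 at 0 h, 2.07 and 2.08 at 8 h, and 1.15 and 1.29 at 24 h.

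Among the genes of proteins that tie chromatin to the membrane, Lbr, Tmpo and Banf1 fell at both times. Lbr, whose product binds B-type lamins and the heterochromatin protein HP1 and also acts as a sterol reductase, was at 29.0 and 29.1 FPKM at 0 h, 15.2 and 16.5 at 8 h and 10.5 and 9.21 at 24 h. No library of one time point overlapped another, and the 24 h mean was 33.9% of the untreated one. Its log2 differences were -0.84 at 8 h (SE 0.07, adjusted p = 0.000118) and -1.47 at 24 h (SE 0.07, adjusted p = 2.99e-06), the largest of the 10 members at both times. Tmpo was at 122 and 121, then 89.1 and 90.2, then 64.2 and 62.5 FPKM, a log2 difference of -0.93 at 24 h (SE 0.04, adjusted p = 1.48e-06). Banf1 was at 420 and 391, then 353 and 344, then 268 and 266 FPKM, and differed by -0.60 at 24 h (SE 0.05, adjusted p = 2.69e-05).

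Emd and Lemd3, which encode the other LEM-domain proteins, stayed close to their untreated levels in parental cells. Emd lay between 42.3 and 47.3 FPKM over the 6 libraries and Lemd3 between 5.07 and 5.97. In both genes the 8 h and 24 h libraries overlapped those at 0 h, whereas the 24 h libraries lay below the 8 h ones, a difference that did not pass (adjusted p = 0.144 and 0.162). Neither passed the test at 8 h (adjusted p = 0.287 and 0.234) or at 24 h (adjusted p = 0.623 and 0.797).

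Sun1 and Sun2, both LINC complex genes, went different ways. Sun2 was at 14.2 and 13.3 FPKM at 0 h, 19.3 and 19.5 at 8 h and 26.7 and 24.8 at 24 h. It was the only member higher than at 0 h after 24 h in parental cells, with a log2 difference of 0.86 (SE 0.05, adjusted p = 1.15e-05), and the rise at 8 h was 0.47 (SE 0.05, adjusted p = 0.000497). Sun1 was at 18.9 and 19.0, then 21.1 and 21.97, then 18.4 and 18.7 FPKM. It rose by 0.18 at 8 h (SE 0.04, adjusted p = 0.0106) and was back near its first level at 24 h (-0.03, adjusted p = 0.563).

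In parental cells, 3 members rose and 4 fell at 8 h, where 22.4% of all tested genes rose and 32.1% fell. At 24 h against 0 h 1 rose and 6 fell, beside 33.4% and 37.1% of all tested genes, and the median log2 difference of the members was -0.37, beside -0.02 for all tested genes. At 24 h against 8 h 1 rose (Sun2) and 6 fell (Lmnb1, Lmna, Lbr, Tmpo, Banf1 and Sun1), beside 27.7% and 24.0%. The comparisons at 8 h and 24 h share the untreated libraries.

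Among genes known to respond to TGF-β, Skil rose by 1.11, Smad7 by 0.95 and Fn1 by 0.76 on the log2 scale at 8 h in parental cells, while Cdh1, the epithelial cadherin, fell by 0.37. Of 18 proliferation genes all 18 fell at both 8 h and 24 h, with a median log2 difference of -0.61 and -1.45. Their summed FPKM was 1523 to 1563 at 0 h, 981 to 1027 at 8 h and 546 to 592 at 24 h, and their part in the falls of Lmnb1, Lbr, Tmpo and Banf1 was not tested. In bulk RNA, fewer cells that express a gene and less RNA per cell cannot be told apart. Of the epithelial markers, Krt8 (2024 to 2031 FPKM), Krt18, Cdh1 and Ocln were expressed at 0 h in parental cells, whereas Epcam (0.319 to 0.383) and Cldn4 (0.0923 to 0.147) were near 0. Of the 5 epithelial markers tested, 3 rose at 8 h (Krt8 by 0.35, Krt18 by 0.20 and Cldn4 by 2.48) and 2 fell (Cdh1 and Ocln), and Cldn4 reached 4.15 to 6.61 FPKM. Markers of haematopoietic, endothelial and fibroblast cells summed to at most 2.09 FPKM per list in any parental library.

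Other genes of the nuclear envelope, from lists of related function, moved in both directions. Of 11 listed LINC and torsin partners, 7 passed the filter on low values and were tested. Of these 7, 3 rose and 1 fell at 24 h in parental cells, beside 33.4% and 37.1% of all tested genes. Syne3, which encodes nesprin-3, fell by 1.07 (adjusted p = 3.83e-05), and Tor1aip2 and Tor1aip1, which encode the torsin activators LULL1 and LAP1, rose by 0.54 and 0.47, as did Tor1b by 0.27. Of 7 other LEM-domain and membrane proteins tested, 2 rose and 2 fell, beside the same shares of all tested genes. The falls were of Nrm (nurim, -1.19, adjusted p = 4.76e-06) and Ankle1 (a LEM-domain nuclease, -1.44, adjusted p = 7.89e-05), and the rises, of 0.21 and 0.14, were of Tmem43 and Ankle2. Among 6 genes listed for the prenyl processing of lamins, Icmt rose by 0.51 and Fnta fell by 0.37. Among 5 chromatin tethers the HP1 genes Cbx3, Cbx1 and Cbx5 fell by 0.41, 0.29 and 0.27 while Prr14 rose by 0.44.

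**Figure D2:**
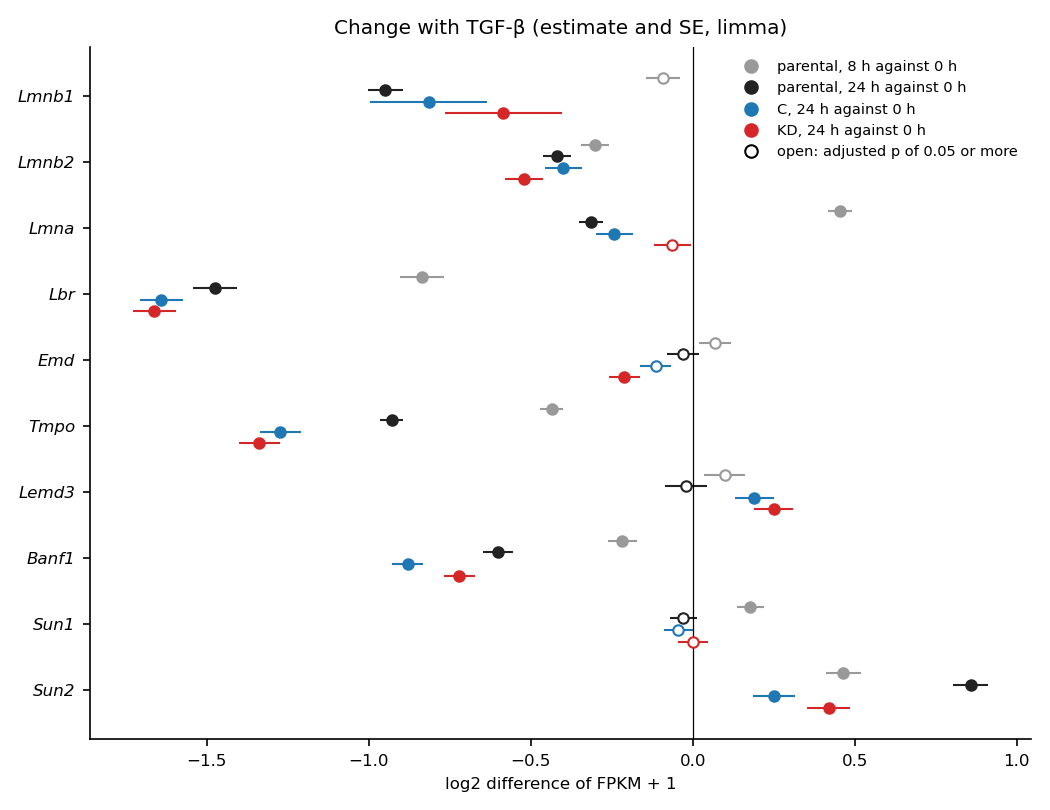
Log2 difference of FPKM + 1 against 0 h for each member, with SE, in parental cells at 8 h and 24 h and in C and KD cells at 24 h (limma, filled points passed an adjusted p of 0.05). Lbr stands furthest to the left at -1.47 in parental cells and Sun2 is the only member to the right of 0 in all 4 series at a filled point.

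In C cells, which passed through infection and selection, the course of most members was as in parental cells. At 8 h 3 members rose (Lmna, Lemd3 and Sun1) and 4 fell (Lmnb2, Lbr, Tmpo and Banf1), beside 19.4% and 44.9% of all 11450 tested genes, and at 24 h 2 rose (Lemd3 and Sun2) and 6 fell (Lmnb1, Lmnb2, Lmna, Lbr, Tmpo and Banf1), beside 25.5% and 45.1%. The median of all tested genes was -0.14 at 8 h and -0.13 at 24 h in C cells, and quantile normalization brought it to -0.03 and -0.01. With it the share of rises among all calls went from 30.2% to 45.6% at 8 h and from 36.1% to 49.9% at 24 h. Under that scaling the differences of Lmnb2 at 8 h (-0.09, adjusted p = 0.209) and of Lmna at 24 h (-0.12, adjusted p = 0.191) did not pass the test. Lmnb1 was at 29.2 and 36.5 FPKM in C cells at 0 h, 32.8 and 32.1 at 8 h and 18.4 and 17.9 at 24 h (log2 difference at 24 h -0.82, SE 0.18, adjusted p = 0.00317). The 2 untreated C libraries thus lay on both sides of the 8 h ones. Lbr was at 27.9 and 32.5 at 0 h and 8.93 and 9.02 at 24 h (-1.64, SE 0.07, adjusted p = 7.89e-08), and Tmpo at 103 and 119 against 44.5 and 45.7 (-1.27, SE 0.06, adjusted p = 2.5e-07). Sun2 was at 20.9 and 18.0 at 0 h, did not pass at 8 h (18.1 and 18.1, adjusted p = 0.234) and reached 24.1 and 22.5 at 24 h (0.25, SE 0.07, adjusted p = 0.00765). Some smaller calls did not pass when 1 library was left out. At 8 h Lmnb2 did not pass without C 0 h replicate 2, C 8 h replicate 1 or C 8 h replicate 2 (-0.12, -0.21 and -0.20, adjusted p = 0.0612, 0.0506 and 0.0553, against -0.21 with all libraries), Lemd3 without C 0 h replicate 1 or C 8 h replicate 1 (0.14 and 0.16, adjusted p = 0.104 and 0.11) and Sun1 without C 0 h replicate 2 or C 8 h replicate 1 (0.13 and 0.15, adjusted p = 0.0534 and 0.0652), whereas Sun2 passed as a fall of 0.20 without C 0 h replicate 2 (adjusted p = 0.0135). At 24 h Lemd3 did not pass without C 0 h replicate 1, C 24 h replicate 1 or C 24 h replicate 2 (0.14, 0.18 and 0.20, adjusted p = 0.106, 0.091 and 0.0575, against 0.19 with all libraries), Sun2 did not without C 24 h replicate 1 (0.20, adjusted p = 0.0622), and Emd passed as a fall of 0.17 without C 0 h replicate 1 (adjusted p = 0.0144).

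The knockdown was checked first on its target. Lmnb1 was at 9.01 and 9.27 FPKM in the KD libraries at 0 h, 7.79 and 8.14 at 8 h and 4.37 and 7.52 at 24 h, and each KD library was below each C library of its time point. KD cells held 27.8%, 24.6% and 32.8% of the mean of C cells at 0, 8 and 24 h. The log2 differences were -1.73 (SE 0.18, adjusted p = 0.000573), -1.90 (SE 0.18, adjusted p = 0.000189) and -1.50 (SE 0.18, adjusted p = 0.000901). The 2 KD libraries at 24 h were further apart than any other KD pair.

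**Figure D3:**
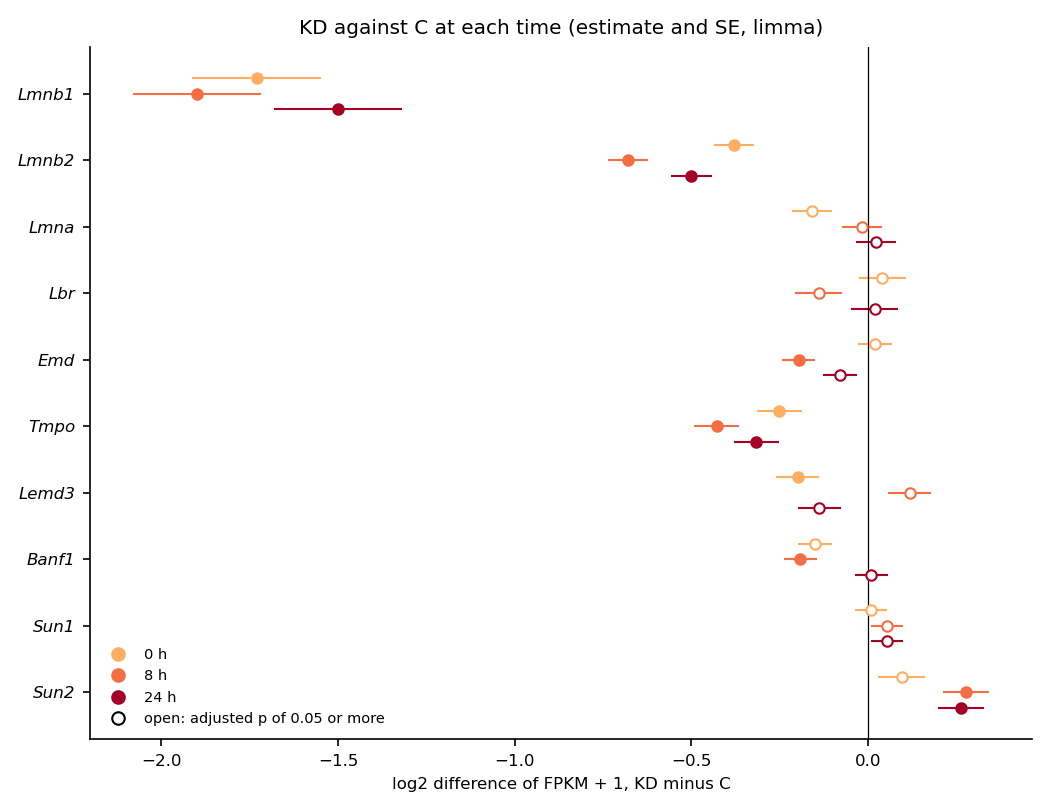
Log2 difference of FPKM + 1 between KD and C cells for each member at 0, 8 and 24 h of TGF-β, with SE (limma, filled points passed an adjusted p of 0.05). Lmnb1, Lmnb2 and Tmpo are filled and to the left of 0 at all 3 times, and Lmna, Lbr and Sun1 are open at all 3.

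Of the other lamins, Lmnb2 was lower in KD cells and Lmna was not called. Lmnb2 was at 19.3 and 21.8 FPKM in C against 15.7 and 15.4 in KD cells at 0 h, 17.7 and 17.6 against 10.6 and 10.7 at 8 h, and 15.4 and 15.2 against 10.2 and 10.8 at 24 h. The groups did not overlap at any time, and KD cells held 75.6%, 60.3% and 68.9% of the C level. The log2 differences were -0.38 (SE 0.06, adjusted p = 0.00336), -0.68 (SE 0.06, adjusted p = 0.000111) and -0.50 (SE 0.06, adjusted p = 0.000758). Lmna was at 351 and 390 against 327 and 336 at 0 h, 506 and 497 against 477 and 514 at 8 h, and 320 and 305 against 320 and 315 at 24 h. Its difference had a 95% confidence interval of -0.29 to -0.03 at 0 h (adjusted p = 0.087), -0.15 to 0.11 at 8 h and -0.11 to 0.15 at 24 h, and without C 0 h replicate 1 it passed at 0 h (-0.23, adjusted p = 0.0226). Lmna to Lmnb1 was 36.3 in both untreated KD libraries, against 12.01 and 10.7 in C cells, and 61.3 and 63.2 at 8 h, against 15.4 and 15.5. At 24 h it was 73.2 and 41.9 in KD cells. Lmnb1 to Lmnb2 was between 0.428 and 0.763 in the 6 KD libraries and between 1.18 and 1.86 in the 6 C libraries.

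**Figure D4:**
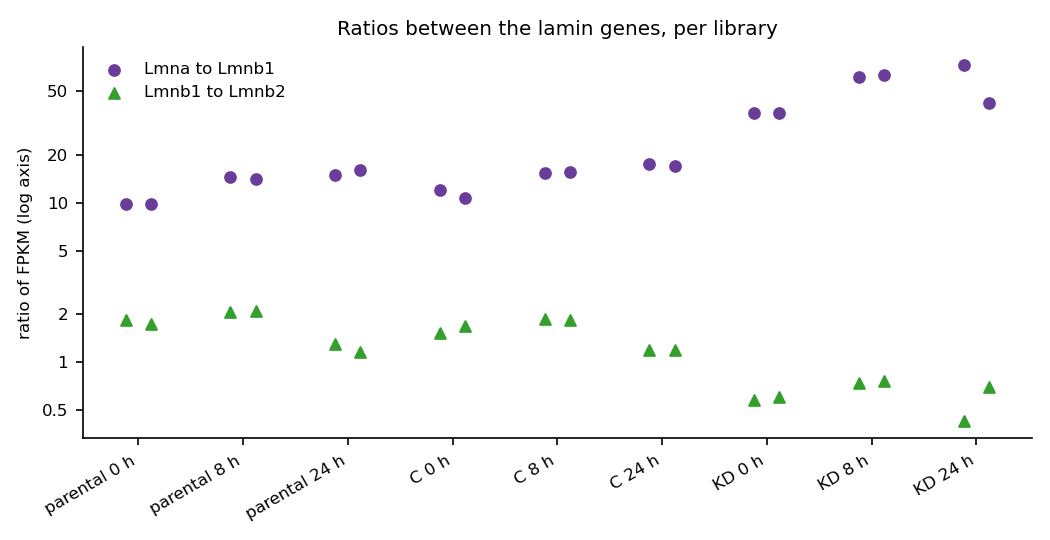
Ratio of FPKM between lamin genes in each library, on a log axis, with Lmna to Lmnb1 as circles and Lmnb1 to Lmnb2 as triangles. Lmnb1 to Lmnb2 is above 1 in all parental and C libraries and below 1 in all 6 KD libraries, and the 2 KD libraries at 24 h are apart in both ratios.

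Among the membrane proteins, Tmpo was called lower in KD cells at each time, and Sun2 was called higher at 8 h and 24 h. Tmpo was at 103 and 119 FPKM in C against 94.1 and 91.1 in KD cells at 0 h, 73.4 and 75.7 against 54.6 and 55.7 at 8 h, and 44.5 and 45.7 against 34.96 and 37.1 at 24 h, with no overlap at any time. It differed by -0.25 at 0 h (SE 0.06, adjusted p = 0.0259), -0.43 at 8 h (SE 0.06, adjusted p = 0.0014) and -0.32 at 24 h (SE 0.06, adjusted p = 0.00782). Sun2 was at 20.8 in both KD libraries at 0 h, within the C range of 18.0 to 20.9, but at 21.8 and 22.5 against 18.1 and 18.1 at 8 h and at 27.6 and 28.8 against 24.1 and 22.5 at 24 h. It was higher by 0.28 at 8 h (SE 0.07, adjusted p = 0.0117) and by 0.26 at 24 h (SE 0.07, adjusted p = 0.0187). The responses of Sun2 to TGF-β in KD and C cells were not called different by limma. They differed by 0.18 at 8 h (adjusted p = 0.3025) and 0.17 at 24 h (adjusted p = 0.31). Lbr, despite its steep fall with TGF-β, was not called between KD and C cells at any time, with 30.6 and 31.3 against 27.9 and 32.5 at 0 h and 8.89 and 9.32 against 8.93 and 9.02 at 24 h, and 95% intervals of -0.11 to 0.19 and -0.13 to 0.17. At 8 h Lbr was at 13.8 and 14.5 in KD against 15.6 and 15.7 in C cells, without overlap (-0.14, interval -0.29 to 0.01, adjusted p = 0.134), and it passed in a fit limited to the compared groups (adjusted p = 0.0405). Emd (34.9 and 35.03 against 39.0 and 41.4) and Banf1 (224 and 229 against 257 and 259) were lower at 8 h, by 0.20 and 0.19 on the log2 scale (adjusted p = 0.0134 and 0.015). Lemd3 was lower at 0 h only by this threshold (4.91 and 4.61 against 5.36 and 5.86, -0.20, adjusted p = 0.0491), and Sun1 was not called at any time.

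Counted over the members, 0 were higher and 4 lower in KD cells at 0 h (limma), beside 10.6% and 9.09% of all tested genes. At 8 h 1 was higher and 5 lower, beside 19.3% and 16.5%, and at 24 h 1 was higher and 3 lower, beside 16.8% and 11.5%. Before adjustment 6 of the 10 had a p under 0.05 at 0 h, a count that does not compare with these adjusted shares. Lmnb1, the target, is among the lower members at each time. The proliferation genes moved with these differences too, with 4 of 18 lower and 1 higher at 0 h, 16 lower at 8 h and 15 lower at 24 h, and their summed FPKM at 8 h was 706 to 736 in KD and 1002 to 1011 in C cells. Their part in the lower levels of Tmpo and Lmnb2 was not tested. Of 5 chromatin tethers, 0 were higher and 2, 4 and 2 lower in KD cells at 0, 8 and 24 h. The HP1 gene Cbx1 was lower at all 3 times, by 0.24, 0.30 and 0.22. Of 7 other LEM-domain and membrane proteins tested, 1 was higher at each time and 1, 2 and 2 were lower. The higher one was Tmem43, which encodes the emerin-binding protein LUMA, by 0.35, 0.58 and 0.71 (limma, adjusted p = 0.000668, 4.42e-05 and 3.14e-05).

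Several of these calls did not hold when 1 library was left out. At 0 h Tmpo had an adjusted p of 0.0784 without C replicate 2, 0.0962 without KD replicate 1 and 0.141 without KD replicate 2, and Lemd3 had 0.184, 0.116 and 0.249, whereas Banf1 (-0.22, adjusted p = 0.00705) and Sun2 (0.20, adjusted p = 0.0355) passed without C replicate 1. At 8 h Banf1 had an adjusted p of 0.0631, 0.0738, 0.0833 and 0.0511 without C replicate 1, C replicate 2, KD replicate 1 and KD replicate 2, Emd had 0.0995, 0.067 and 0.0618 without C replicate 2, KD replicate 1 and KD replicate 2, and Sun2 had 0.0574, 0.0609 and 0.0719 without C replicate 1, C replicate 2 and KD replicate 2. At 24 h Sun2 had 0.0507, 0.122 and 0.0635 without C replicate 1, C replicate 2 and KD replicate 2, and Tmpo had 0.0554 without C replicate 2. Lmnb1 and Lmnb2 passed at all 3 times with any 1 library left out, but in a fit limited to the compared groups Lmnb2 at 0 h (-0.38, adjusted p = 0.0606) and Lmnb1 at 24 h (-1.50, adjusted p = 0.0539) did not.

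In KD cells themselves TGF-β moved most members as it did in C cells. At 8 h 3 rose (Lmna, Lemd3 and Sun1) and 5 fell (Lmnb2, Lbr, Emd, Tmpo and Banf1), beside 23.0% and 44.8% of all tested genes, with 33.9% of all calls being rises, or 46.6% after quantile normalization. At 24 h 2 rose (Lemd3 and Sun2) and 6 fell (Lmnb1, Lmnb2, Lbr, Emd, Tmpo and Banf1), beside 28.6% and 43.3%, with 39.8% of all calls being rises, or 50.2% after quantile normalization. Lbr fell by 1.66 and Tmpo by 1.34 at 24 h, and Lmna rose by 0.58 at 8 h. Lmnb1 fell further from its reduced level at 24 h (-0.58, SE 0.18, adjusted p = 0.017), but the value rested on which 24 h library was used. It was -0.25 without KD 24 h replicate 1 (adjusted p = 0.0615) and -0.92 without KD 24 h replicate 2. Without KD 0 h replicate 1 or 2 it was -0.60 and -0.57 and did not pass (adjusted p = 0.0555 and 0.0683). The call was also lost without the filter on low values and in a fit limited to the compared groups (adjusted p = 0.105).

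Whether the response to TGF-β differed between KD and C cells was tested as the difference of the 2 responses. By limma 0 of the 10 members passed at 8 h, beside 2.45% of all tested genes with a higher and 1.61% with a lower response. At 24 h 0 passed, beside 2.73% and 1.98%. Before adjustment 3 members had a p under 0.05 at 8 h (Lmnb2, Emd and Lemd3) and 1 (Banf1) at 24 h. The shares of all genes are at the adjusted threshold and do not compare with these unadjusted counts. The members with the lowest adjusted p at 8 h were Lemd3 (0.32, SE 0.09, adjusted p = 0.0785) and Lmnb2 (-0.30, SE 0.08, adjusted p = 0.0799), with 95% intervals of 0.12 to 0.51 and -0.49 to -0.12. These 2 intervals do not hold 0, nor do those of Emd at 8 h (-0.37 to -0.06) and of Banf1 at 24 h (0.006 to 0.31). The intervals are not adjusted for the number of genes tested, and the design has 2 libraries per group. Calls of some members changed when 1 library was left out, and the share of all tested genes called in such fits is not given. Without C 0 h replicate 2 this held at 8 h for Lmnb2 (-0.39), Lbr (-0.29), Emd (-0.27), Tmpo (-0.28) and Sun2 (0.28). It also held for Sun2 at 24 h (0.27). At 24 h it held for Banf1 without C 0 h replicate 1 (0.23) and for Lmnb1 without KD 24 h replicate 1 (0.56).

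Lamin B1 itself was mapped at several of these genes, though not at its own. In this assay chromatin was sheared mildly so that accessible chromatin is sequenced, and a gene was called lamin B1 + where a deposited peak overlapped it by at least 1 bp from 2500 bp upstream of its start to its 3′ end. At 0 h 7 of the 10 members were lamin B1 +, beside 33.6% of the 10614 expressed and placed genes. At 8 h 8 members were, beside 56.5%, and at 24 h 7 were, beside 44.0%. With 1 library per time point there is no test, and the lists differ in length (4645, 10484 and 7083 peaks at 0, 8 and 24 h). Lmna, Lbr, Tmpo, Lemd3, Banf1, Sun1 and Sun2 carried a peak at all 3 times, Lmnb2 at 8 h only, and Lmnb1 and Emd at none.

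At Lbr, Tmpo, Lemd3, Sun1 and Sun2 the lamin B1 peak lay over the start site at all 3 times. The Sun2 gene (chr15:79554500-79572966, minus strand) had peaks from -687 to 1027 bp relative to its start at 0 h, with a score of 124, and scores of 224 at 8 h and 263 at 24 h. The start site of a noncoding gene, Gm16576, lies in the same peaks. The Lbr gene (chr1:183745447-183772532, minus strand) had peaks over its start with scores of 79.1, 138 and 244 at 0, 8 and 24 h. Each list comes from 1 library and the lists differ in length and in range of scores, so scores are given side by side and are not compared between times. Lemd3 (chr10:120360469-120416388, minus strand) had scores of 61.6, 215 and 238, and Tmpo (chr10:90610316-90634759, minus strand) 138, 215 and 158. Sun1 (chr5:139676591-139725794, plus strand) had 135, 113 and 68.6.

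Peaks at Banf1, Lmna and Lmnb2 did not lie over the start site at all 3 times. The peak near Banf1 (chr19:5364641-5366645, minus strand) covered the start of the neighbouring gene Eif1ad at all 3 times and the start of Banf1 at 0 h and 24 h, and it cannot be assigned to one of the pair. Within Lmna (chr3:88285070-88313878, minus strand), 3 peaks at 0 h, 4 at 8 h and 1 at 24 h lay in the gene body and none over its 5′ end. At 0 h 2 of them lay near the 3′ end, from 24446 to 28114 bp downstream of the start and over exons, and 1 (score 53.8) at 6683 to 7628 bp. At 8 h 2 of the 4 covered inner start sites of coding transcripts (scores 60.7 and 86.2). Lmnb2 (chr10:80363948-80380990, minus strand) had a peak over its start, from -239 to 988 bp relative to it, at 8 h only (score 96.2). A second 8 h peak (score 62.2) at its 3′ end also covered the start of Timm13.

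**Figure D5:**
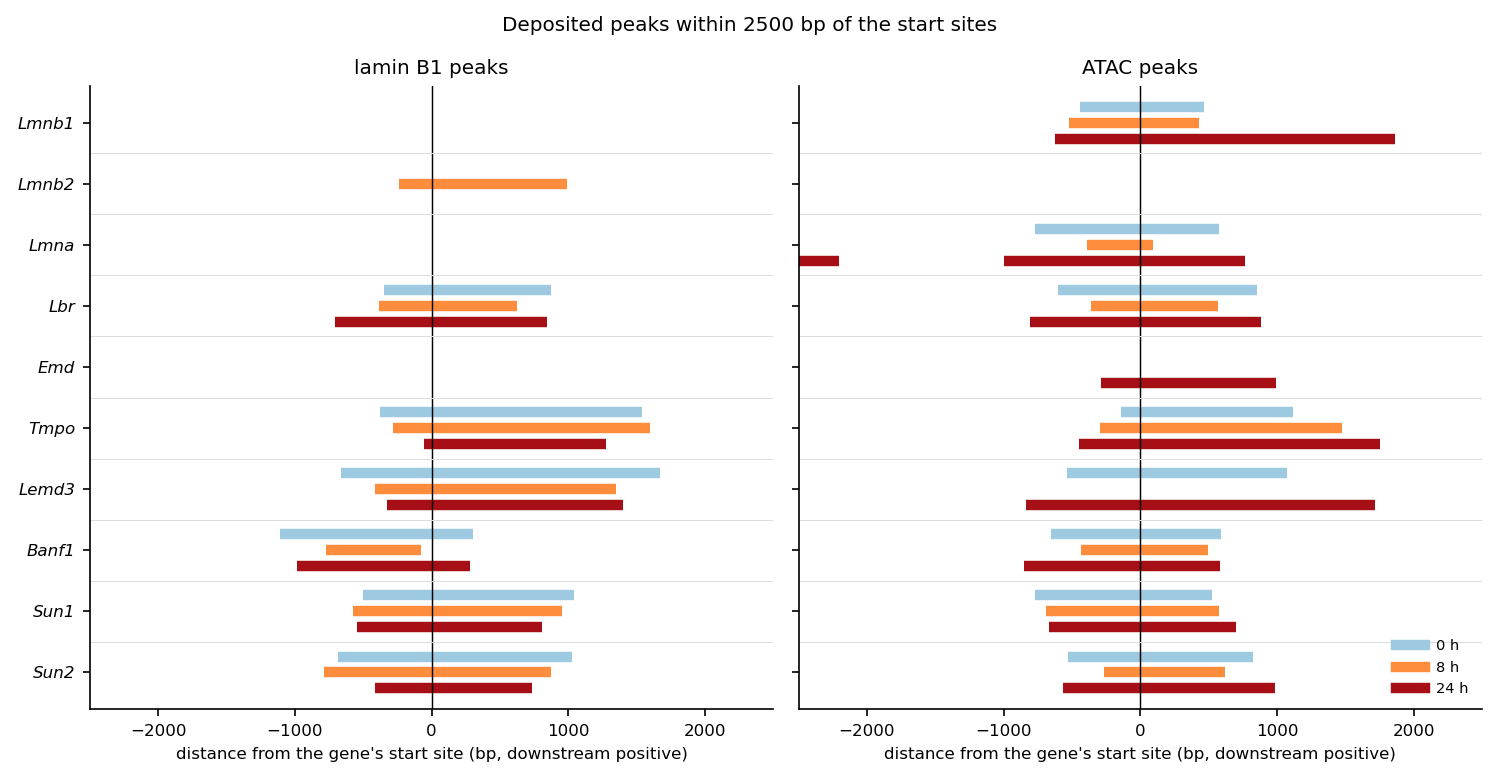
Deposited lamin B1 peaks (left) and ATAC peaks (right) within 2500 bp of each member's start site, as bars from the peak's first to its last base at 0, 8 and 24 h, with distance in bp along the gene's strand. Lmnb1 and Emd have no lamin B1 bar, Lmnb2 has a lamin B1 bar at 8 h and no ATAC bar, and Emd has an ATAC bar at 24 h only.

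ATAC-seq, which marks open chromatin by transposase insertion, found a peak within 500 bp of the start site in 8 of 10 members at 0 h, beside 56.3% of the expressed and placed genes. At 8 h it was 7 of 10, beside 46.1%, and at 24 h 9 of 10, beside 84.0%, from lists of 9782, 10340 and 33811 peaks. Lmnb1 (chr18:56867467-56913078, plus strand), which had no lamin B1 peak, had an ATAC peak over its start at all 3 times, with scores of 64.6, 64.5 and 470. An intronic ATAC peak, 29304 to 29966 bp downstream at 0 h, was also present at all 3 times, and a second intronic one, 15613 to 16902 bp downstream, at 24 h only. The score of 470 does not compare directly with the earlier ones, since each list comes from 1 library and the lists differ in length and range of scores. It stood at percentile 92.5 of its list, and the others at 21.8 and 33.4 of theirs.

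Emd (chrX:71500026-71506887, plus strand) had an ATAC peak over its start at 24 h only (score 244), Lemd3 lacked one at 8 h, and Lmnb2 lacked one at its start at all 3 times although its RNA was at 15 FPKM or more in every parental library. The ATAC peaks at the 3′ end of Lmnb2 covered the start of Timm13. Lmna had ATAC peaks over its 5′ end and over 2 inner start regions, 5922 to 7235 bp and 16378 to 17650 bp downstream at 0 h, at all 3 times. Lbr, Tmpo, Banf1, Sun1 and Sun2 had one over the start at all 3 times, with scores of 71.9 to 248 at 0 h and 8 h and 364 to 629 at 24 h. At all 3 times the peak at Banf1 also covered the start of Eif1ad, and the peak at Sun2 that of Gm16576. These peaks cannot be assigned to one gene of each pair.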

How the data were processed

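NMuMG cells were profiled by RNA-seq, lamin B1 ChIP-seq and ATAC-seq. The authors' processing notes name Bowtie, TopHat, Cufflinks and mm9, with versions not given in the sources used here. The authors deposited FPKM per gene and library in 2 tables without a header, whose columns were taken in the order the descriptions name. Parental columns carry no replicate number. The deposited peak lists name MACS and hold a score per peak, with a lowest value of 50. How the IgG control entered them is not given in the sources used here. The files hold no read counts, so absolute depth is unknown and no counting intervals are given. Relative depth was estimated from ratios of low FPKM values to those of the first library of each set. It was 92.8% to 116% over the parental libraries and 78.9% to 112% over the shRNA libraries. Hi-C samples were not analysed here.

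Members and gene lists were chosen with earlier results of these data known. All 10 members were named, and genes of the other lists were named by smallest adjusted p. Differences were tested with limma 3.58.1 (R 4.3.3) on log2(FPKM + 1), which understates changes of low genes, for genes that reached an FPKM of 1 in 2 or more libraries. All libraries of a table entered 1 fit with a trended prior, and p-values were adjusted by Benjamini-Hochberg over all genes tested, with a threshold of 0.05. Intervals are at 95%. The test was tried on simulated data. Peaks were joined to GENCODE M1 genes of the same build. Alternatives were a pseudocount of 0.1, no filter, no trend in the prior, quantile normalization, fits limited to the compared groups, a replicate block, leaving out each library and stricter peak rules. One gene of the list of TGF-β responses is not reported here.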

Additional observations from a re-analysis of the deposited data

How the results depend on the processing

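With 2 libraries per group the smaller calls depended on the settings, and FPKM without counts gives no number of fragments per gene to weigh them by. Over 1250 refitted log2 differences of members, 1178 stayed on the same side of the threshold, 17 passed only in the alternative and 55 passed only as reported. Of the 1178, 30 had the opposite sign and were called in neither fit. Among members called between KD and C cells at 0 h (4), no filter left 2, a fit of only the groups compared left 1, and leaving out 1 library gave 2 to 7. At 8 h (6) leaving out 1 library gave 3 to 4. At 24 h (4) a fit of only the groups compared left 1, and leaving out 1 library gave 2 to 4. For C cells at 8 h (7) these gave 4, and 4 to 6. For the difference of responses (0 and 0), leaving out 1 library gave 0 to 5 at 8 h and 0 to 1 at 24 h. Where 1 library was left out, the lone library of its group was assumed to vary like the other groups. Shares of all tested genes in these refits are not given, so the counts do not set the members apart from all genes. With peaks at or above the median score, 4 members in place of 7 were lamin B1 + at 24 h. Under the same rule the share of all expressed and placed genes was 26.3% in place of 44.0%. The cause was not tested. Under quantile normalization Lemd3 at 0 h (adjusted p = 0.0669) and Banf1 at 8 h (adjusted p = 0.0754) did not pass between KD and C cells. In most pairs of groups, same-numbered libraries of C and KD cells did not deviate alike from their group means. The r between deviations ran from -0.135 to 0.368 over 15 pairs of groups, with 2 over 0.1 and 13 not. With a replicate block, 3, 6 and 4 members were called between KD and C at 0, 8 and 24 h, 7 and 8 in C cells and 8 and 8 in KD cells at 8 and 24 h, and 0 and 0 for the difference of responses.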

Other observations

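Over the 12 libraries without the lamin B1 shRNA, the genes whose log2 FPKM followed Lmnb1 most closely were Areg (Pearson's r = 0.995), Ttc7, Itga6, Prkar2a and G6pdx, and those nearest to Lmna were Fam213a (r = 0.995), Ddx49, Rab27b, Anxa2 and Smu1, out of 8065 genes compared after centring each table on its own mean. These libraries share time points and 2 separately normalized tables, so the values are descriptions of likeness. Tmem43, which encodes an emerin-binding membrane protein, was the gene of the membrane list with a difference of responses between KD and C cells at 24 h (0.35, adjusted p = 0.0128, limma), and Tmem201, which encodes the membrane protein SAMP1, had one at 8 h (-0.38, adjusted p = 0.0376).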
